A study of Homo sapiens with 10 samples.

Results

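The comparison described here sets Kasumi-1 cells given the transcription factor E2-2 against Kasumi-1 cells given the empty vector, with 1 RNA library of each. Kasumi-1 is a human acute myeloid leukemia line, labelled as a myeloblast, that carries an 8;21 chromosome translocation. Cells were infected with a retrovirus, either MIGR1 alone (vector) or MIGR1 carrying E2-2 (encoded by TCF4), E2A (TCF3) or HEB (TCF12). All groups share the line, the culture medium, 4 to 5 passages and the infection, and GFP+ cells were sorted for RNA 4 days after it. Of the 50868 genes of the deposited table, the 13884 with 30 or more reads in the E2-2 and vector libraries together were measured. HEB and E2A libraries, 1 each, are used to show where E2-2 differs from its relatives. The model is therefore forced expression from a viral vector in 1 cell line, read from a pool of sorted cells with no replicate in any group.

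E2-2, E2A and HEB are E proteins, basic helix-loop-helix factors that bind DNA in pairs at short sites called E-boxes, whose letters are CANNTG. ID proteins lack the DNA-binding part and hold E proteins in pairs that cannot bind. E proteins direct lymphocyte development, E2-2 is needed for plasmacytoid dendritic cells, and in t(8;21) leukemia the AML1-ETO fusion protein works in a complex that includes E proteins. The E-box forms most often bound by E proteins have the inner letters GC, GG or CC, which gives CAGCTG and the pair CAGGTG and CACCTG, each the reverse complement of the other.

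Promoters of 4 of the genes with much higher counts in E2-2 show how these sites lie, and the promoter of a further gene shows a case without one. Each is the 250 bases before a RefSeq transcript start in GRCh38.p14, read 5′ to 3′ on the gene's strand with the E-box forms just named (inner letters GC, GG or CC) in capitals and all else in lower case. They belong to CPA3 (chr3:148865046-148865295, plus strand), MYBPH (chr1:203175827-203176076, minus strand), VWA5B2 (chr3:184230103-184230352, plus strand), CSF1R (chr5:150113366-150113615, minus strand) and CHRD (chr3:184379804-184380053, plus strand), and were chosen after the values were seen. VWA5B2 and CSF1R have more than 1 start in the RefSeq table, and 1 is shown.
CPA3: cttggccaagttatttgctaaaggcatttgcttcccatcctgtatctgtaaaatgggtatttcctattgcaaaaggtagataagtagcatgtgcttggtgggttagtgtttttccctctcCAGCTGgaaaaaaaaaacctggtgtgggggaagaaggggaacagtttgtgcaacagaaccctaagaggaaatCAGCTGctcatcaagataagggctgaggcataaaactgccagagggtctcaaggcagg
MYBPH: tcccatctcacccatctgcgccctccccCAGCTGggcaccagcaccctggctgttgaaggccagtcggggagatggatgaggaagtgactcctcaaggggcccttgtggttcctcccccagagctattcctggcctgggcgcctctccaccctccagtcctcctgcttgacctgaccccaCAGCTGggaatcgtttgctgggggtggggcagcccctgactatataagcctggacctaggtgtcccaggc
VWA5B2: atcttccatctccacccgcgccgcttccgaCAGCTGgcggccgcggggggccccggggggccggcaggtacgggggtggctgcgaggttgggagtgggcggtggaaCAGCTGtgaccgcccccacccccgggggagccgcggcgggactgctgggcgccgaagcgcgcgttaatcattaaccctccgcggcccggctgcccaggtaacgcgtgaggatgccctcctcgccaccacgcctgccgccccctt
CSF1R: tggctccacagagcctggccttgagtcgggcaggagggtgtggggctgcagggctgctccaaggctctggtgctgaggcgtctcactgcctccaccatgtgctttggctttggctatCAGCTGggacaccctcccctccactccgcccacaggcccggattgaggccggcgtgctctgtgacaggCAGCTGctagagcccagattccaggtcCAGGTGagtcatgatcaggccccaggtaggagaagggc
CHRD: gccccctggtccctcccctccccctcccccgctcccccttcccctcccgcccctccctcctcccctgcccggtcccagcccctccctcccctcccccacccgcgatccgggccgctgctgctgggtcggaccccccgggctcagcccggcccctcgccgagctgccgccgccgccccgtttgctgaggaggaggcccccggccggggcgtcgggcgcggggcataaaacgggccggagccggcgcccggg
CAGCTG begins 130 and 58 bases before the start in CPA3, 222 and 70 bases before it in MYBPH and 220 and 144 bases before it in VWA5B2. The CSF1R stretch holds CAGCTG at 133 and 65 bases and CAGGTG at 38 bases before that start. None of these letter runs occurs in the CHRD stretch. A match is a run of letters and not a measured binding site. The 4 promoters with sites are not typical. Of the 300-base windows of genes called higher in E2-2, counted below, 13.6% held 2 or more such sites. MYBPH, a muscle myosin-binding protein, had 0 reads in vector and 384 in E2-2, at least 132-fold higher, and VWA5B2 had 2 reads in vector and 2563 in E2-2, 1318-fold (365 to 10889.7) higher. The values of CPA3, CSF1R and CHRD stand with their groups below. A fold is the ratio of counts scaled for library size, and the range in parentheses is its 95% counting interval.

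The transduced gene was examined first, as a check of the labels. TCF4 had 4 reads in vector and 12484 in E2-2, and counts do not separate viral from native transcripts. Totals were 15728974 counted reads in vector and 14816708 in E2-2. A read count is also given as CPM, counts scaled to a library of 1000000. The myeloblast label was checked against its genes: the granule enzyme MPO stood at 14862 CPM in vector and 11254 in E2-2, the receptor KIT at 652 and 626, the progenitor antigen CD34 at 253 and 166, and RUNX1T1, the 3′ partner of the fusion, at 207 and 146. The elastase gene ELANE stood at 415 and 272 CPM. None of these 5 was called, whereas the myeloid surface antigen CD33 was 4.08-fold (3.68 to 4.54) higher, at 28.3 and 115 CPM. Every fold below carries a 95% exact binomial interval in parentheses that covers counting error only, and no p-value can be given. A gene is called when its fold is at least 2 and the interval excludes 1, which describes these libraries and not a repeated response. In bulk RNA, a different number of cells of a type and a different RNA level per cell cannot be told apart.

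Higher genes were more frequent than lower genes and their folds were larger. Of the 13884 measured genes, 1173 (8.45%) were called higher in E2-2 and 493 (3.55%) lower, and 74.4% of all measured genes differed by less than 1.5-fold. Among higher genes 660 differed 2- to 4-fold, 204 differed 4- to 8-fold, 129 differed 8- to 16-fold and 180 differed 16-fold or more. Among lower genes the same ranges held 439, 45, 8 and 1 genes. A total of 52 higher genes had 0 reads in vector and 147 had 3 or fewer, and these passed the 30-read minimum through the E2-2 library, so they had to differ. Calls were rarer at high levels: 16.2% of genes with a mean below 3 CPM were higher and 8.01% lower, against 1.76% and 0.98% of the 510 genes at 300 CPM or more. Among those abundant genes PPP1CC, the gamma catalytic subunit of protein phosphatase 1, had 9086 reads in vector and 38710 in E2-2, 4.38-fold (4.28 to 4.48) higher. By RefSeq gene type, 8.49% of 11053 protein-coding genes and 9.78% of 368 long non-coding RNAs were higher, close to the share of all genes. Immunoglobulin and T cell receptor V segments had 10 of 14 measured higher and 0 lower. Most of these had few or no reads in vector and passed the read minimum through the E2-2 library, so their share is no measure of the group.

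**Figure D1:**
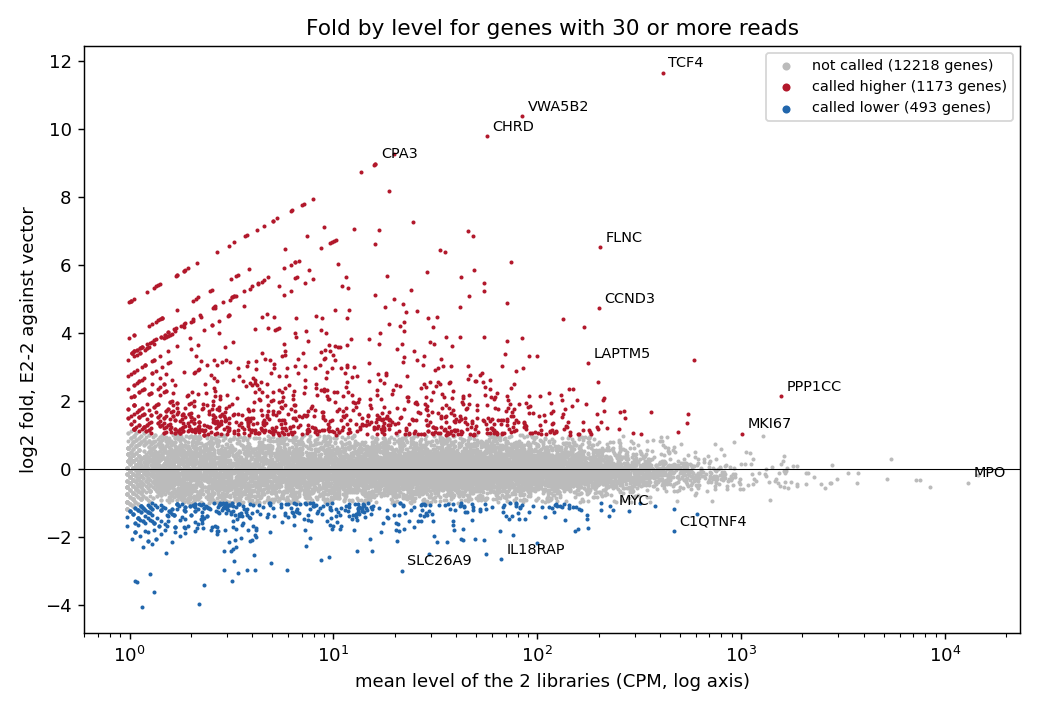
Log2 fold of E2-2 against vector (vertical axis) by the mean level of both libraries in CPM (horizontal log axis), 1 point per measured gene, coloured by call. The 1173 higher genes include 180 at 16-fold or more, with TCF4 at the top, the 493 lower genes include 1, and MPO lies among the genes not called.

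Receptors and ligands of blood growth factors were counted first. In the KEGG pathway Hematopoietic cell lineage, which had the highest share of higher genes of the KEGG pathways with 15 or more measured, 14 of 39 measured genes were called higher and 4 lower, a share of 35.9% higher against 8.45% of all genes. Its higher members are receptors such as CSF1R, FLT3 and IL6R, ligands such as THPO, and surface proteins such as CD9 and GP9. For Cytokine-cytokine receptor interaction 25 of 91 measured genes were called higher and 7 lower, with a median log2 fold of 0.33 beside -0.03 over all measured genes. Of the measured genes of each pathway, 5 had 3 or fewer reads in 1 library. Members with so few reads in vector, such as THPO, passed the read minimum through the E2-2 library and had to be called higher. The part of such genes in the shares of both pathways was not tested. CSF1R, the macrophage colony-stimulating factor receptor, had 23 reads in vector and 646 in E2-2, 28.9-fold (19.1 to 45.9) higher. TNFRSF19, a receptor of the tumor necrosis factor family, had 0 reads in vector and 110 in E2-2, at least 37.7-fold higher against the floor of 3 reads. Both ligand and receptor genes were among the calls. The ligand thrombopoietin (THPO) had 1 read in vector and 64 in E2-2, 65.8-fold (11.4 to 2640.1) higher. CSF2RB, the shared beta subunit of the receptors for IL-3, IL-5 and GM-CSF, was 3.79-fold (3.22 to 4.49) higher, with 184 reads in vector and 678 in E2-2. The interleukin 6 receptor gene IL6R was 5.20-fold (4.32 to 6.31) higher and the interleukin 21 receptor gene IL21R 52.5-fold (9 to 2112) higher. Both subunits of the interleukin 18 receptor, in contrast, were lower. IL18RAP had 1784 reads in vector and 276 in E2-2, 6.28-fold (5.53 to 7.16) lower, and IL18R1 had 491 reads in vector and 137 in E2-2, 3.48-fold (2.88 to 4.24) lower. The chemokine receptor gene CCR4 was 4.92-fold (2.90 to 8.83) lower and the chemokine gene CXCL1 4.07-fold (2.51 to 6.91) lower.

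Signalling below these receptors was counted next. In the Jak-STAT signaling pathway, which carries cytokine signals to the nucleus, 20 of 86 measured genes were called higher and 5 lower, 23.3% and 5.81% beside 8.45% and 3.55% of all genes. The cyclin D3 gene CCND3, a cell cycle driver listed there as a target, had 229 reads in vector and 5874 in E2-2, 26.4-fold (23.1 to 30.2) higher. SOCS1, a feedback inhibitor of Janus kinases, had 4 reads in vector and 107 in E2-2, 27.5-fold (10.4 to 103) higher. Lower members included PIK3R5, a regulatory subunit of phosphoinositide 3-kinase gamma, at 3.22-fold (2.49 to 4.20) lower, the interleukin 27 receptor gene IL27RA at 2.18-fold (2.02 to 2.34) lower and MYC, the growth-promoting transcription factor, at 2.33-fold (2.21 to 2.45) lower. MYC had 5140 reads in vector and 2149 in E2-2, so its lower level is well counted. PIK3R5 is shared by many KEGG pathways, and it is 1 of the genes behind the lower counts of several pathways named below.

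Receptor tyrosine kinases, which respond to growth factors by phosphorylating themselves, had 9 of 29 measured genes higher and 2 lower. These are 31% and 6.9%, beside 8.45% and 3.55% of all genes. DDR1, a collagen receptor, had 14 reads in vector and 474 in E2-2, 34.8-fold (20.5 to 64.2) higher. FGFR3, a fibroblast growth factor receptor, had 20 reads in vector and 524 in E2-2, 26.9-fold (17.3 to 44.5) higher. FLT3, a receptor of early blood progenitors and dendritic cell precursors, had 65 reads in vector and 692 in E2-2, 11-fold (8.48 to 14.3) higher. In each case the vector level was low but above the floor of 3 reads. The lower members were the ephrin receptor gene EPHA1, 6.58-fold (3.66 to 12.8) lower, and MST1R, 2.85-fold (1.52 to 5.66) lower, whose product binds macrophage stimulating protein. Cytosolic tyrosine kinases had 5 of 23 higher and 2 lower, 21.7% and 8.7%. SYK, which is recruited to activated immune receptors, had 35 reads in vector and 266 in E2-2, 7.82-fold (5.48 to 11.5) higher. BMX and JAK3 were the lower kinases, 2.77-fold (2.04 to 3.80) and 2.10-fold (1.77 to 2.50).

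Genes that phagocytes use were higher more often than all genes. In Fc gamma R-mediated phagocytosis, the uptake of antibody-coated particles, 14 of 76 measured genes were called higher and 1 lower. In Osteoclast differentiation, which draws on the same receptors and kinases, 22 of 91 measured genes were called higher and 4 lower, and in Natural killer cell mediated cytotoxicity 14 of 69 measured genes were called higher and 4 lower. The shares higher were 18.4%, 24.2% and 20.3% in this order, beside 8.45% of all genes. The shares lower were 1.32%, 4.4% and 5.8%, beside 3.55%. The respiratory burst term of GO had 8 of 21 higher and 0 lower. Shares were smaller in other terms. Phagosome had 11 of 89 higher and 4 lower, 12.4% and 4.49%, with RAB7B, TUBA1A, TLR6 and THBS2 the lower members. Lysosome had 8 of 101 higher and 1 lower, and its 7.92% higher was below the share of all genes. CYBB, the catalytic subunit of the phagocyte NADPH oxidase, had 13 reads in vector and 187 in E2-2, 14.8-fold (8.44 to 28.3) higher. NCF1, a cytosolic oxidase subunit, had 169 reads in vector and 2374 in E2-2, 14.4-fold (12.4 to 17) higher, and its near-identical pseudogenes can share reads with it. The signalling adaptors that carry activating receptor signals were also higher, with FCER1G at 20 reads in vector and 184 in E2-2, 9.46-fold (5.95 to 15.9), and TYROBP at 3 reads in vector and 34 in E2-2, 11.7-fold (3.67 to 59.3). The GTPase RAC2, which activates the oxidase in blood cells, was 4.46-fold (4.05 to 4.91) higher. The inhibitory receptor gene LILRB2 had 1 read in vector and 92 in E2-2, 94.6-fold (16.6 to 3778) higher. These pathways share members and are not separate counts. Markers of monocytes and macrophages are given with the other cell types below.

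Regulators of small GTPases had shares of higher genes above the 8.45% of all genes. In the GO term guanyl-nucleotide exchange factor activity, whose proteins switch GTPases on, 32 of 159 measured genes were called higher and 2 lower, 20.1% and 1.26%. In GTPase activator activity, whose proteins switch them off, 33 of 203 measured genes were called higher and 7 lower, 16.3% and 3.45%, the lower share being close to the 3.55% of all genes. CYTH4, an exchange factor for ARF GTPases, had 34 reads in vector and 2230 in E2-2, 67.5-fold (48.1 to 97.7) higher. DOCK9, an exchange factor for CDC42, had 4 reads in vector and 160 in E2-2, 41.1-fold (15.8 to 153) higher, and SH2D3C had 12 reads in vector and 298 in E2-2, 25.5-fold (14.4 to 50.0) higher. VAV1, the blood cell exchange factor for RAC proteins, was already counted well in vector and had 689 reads in vector and 2101 in E2-2, 3.14-fold (2.88 to 3.42) higher. Higher activators included RAP1GAP2 at 44-fold (18.6 to 137) and DAB2IP at 14.2-fold (9.48 to 22.3), and the lower ones ARAP3 at 3.30-fold (2.78 to 3.92). In Ras signaling pathway 25 of 134 measured genes were called higher and 5 lower, among them the RAS exchange factor RASGRF1 at 22.1-fold (9.89 to 61.4).

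Regulation of actin cytoskeleton and Focal adhesion gave like counts: 23 of 139 measured genes were called higher and 3 lower for the first, and 25 of 128 measured genes were called higher and 5 lower for the second. These are 16.5% and 2.16%, and 19.5% and 3.91%, beside 8.45% and 3.55% of all genes. FLNC, a filamin that crosslinks actin, stood at 4.42 CPM in vector, 142 in HEB, 59.3 in E2A and 403 in E2-2. It had 69 reads in vector and 6110 in E2-2, 91.1-fold (71.9 to 117) higher. ACTN3, an alpha-actinin, had 1 read in vector and 98 in E2-2, 101-fold (17.7 to 4021) higher, and CYFIP2, a part of the complex that starts actin branching, had 21 reads in vector and 159 in E2-2, 7.79-fold (4.92 to 12.9) higher. MYO7A, an unconventional myosin, had 13 reads in vector and 1458 in E2-2, 115-fold (67.2 to 217) higher. Adhesion between cells was mixed. Cell adhesion molecules had 8 of 53 measured genes higher and 8 lower: the P-cadherin gene CDH3 had 26 reads in vector and 1259 in E2-2, 49.8-fold (33.8 to 76.5) higher, and the integrin gene ITGB2 was 3.98-fold (3.31 to 4.81) higher, while the activating receptor gene CD226 was 2.53-fold (2.03 to 3.18) lower and the tight junction genes CLDN19 and CLDN10 were 3.73-fold (1.94 to 7.73) and 2.60-fold (1.82 to 3.78) lower. In the GO term homophilic cell adhesion via plasma membrane adhesion molecules, which holds the cadherins, 12 of 48 measured genes were called higher and 2 lower. These are 25% and 4.17%, while Cell adhesion molecules had 15.1% in each direction.

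Secreted and matrix proteins followed. In the GO term extracellular matrix 35 of 155 measured genes were called higher and 12 lower. These are 22.6% and 7.74%, both above the 8.45% and 3.55% of all genes. The fibrillin gene FBN3 had 0 reads in vector and 312 in E2-2, at least 107-fold higher, and TIMP3, an inhibitor of matrix metalloproteases, had 3 reads in vector and 297 in E2-2, 102-fold (34.5 to 497) higher. MMP2, a protease that cuts basement membrane collagen, had 115 reads in vector and 877 in E2-2, 7.84-fold (6.45 to 9.61) higher. Both a protease and an inhibitor of its class were thus higher. ADAM28 and ADAMTS15, proteases of related families, were lower, 3.32-fold (3.12 to 3.54) and 2.98-fold (2.30 to 3.89), and ADAM28 had 4242 reads in vector and 1242 in E2-2. CPA3, the mast cell carboxypeptidase whose promoter is shown above, had 1 read in vector and 486 in E2-2, 499.9-fold (89.3 to 19784) higher.

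Developmental signalling pathways held calls at several levels. In the KEGG Wnt signaling pathway 19 of 97 measured genes were called higher and 6 lower, 19.6% and 6.19%. The shares of all genes were 8.45% and 3.55%. The wider GO term Wnt signaling pathway was nearer to these, with 31 of 288 higher and 9 lower, 10.8% and 3.12%. The ligand genes WNT9A and WNT7B had 5 reads in vector and 168 in E2-2, and 1 read in vector and 42 in E2-2, respectively, and the WNT antagonist gene SOST had 0 reads in vector and 96 in E2-2, at least 32.9-fold higher. FZD2, a WNT receptor, was 2.13-fold (1.62 to 2.82) lower and the feedback inhibitor AXIN2 2.01-fold (1.28 to 3.22) lower. In the KEGG Notch signaling pathway 7 of 38 measured genes were called higher and 1 lower, 18.4% and 2.63%. The GO term of that name had 19 of 143 higher and 4 lower, 13.3% and 2.8%. The Notch ligands DLL4 and JAG2 had 2 reads in vector and 173 in E2-2, and 24 reads in vector and 284 in E2-2, 89-fold (24.3 to 741) and 12.2-fold (8.02 to 19.3) higher. LFNG, which attaches sugars to Notch and alters its ligand response, was 22.3-fold (12.3 to 45.4) higher, and the Notch target HES1 5.58-fold (3.40 to 9.64) higher. The higher calls thus included ligand, modifier and target genes, while MAML3 was the lower call. Of the 38 measured genes of the KEGG pathway, 30 were not called.

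In Hedgehog signaling pathway 6 of 26 measured genes were called higher and 3 lower, 23.1% and 11.5% beside 8.45% and 3.55% of all genes. Of these, WNT9A, WNT7B, WNT4 and WNT3 among the higher and WNT11 among the lower are WNT ligands that KEGG also lists in its Wnt pathway. HHIP, which binds and restrains Hedgehog ligands, had 1 read in vector and 138 in E2-2, 142-fold (25.1 to 5646) higher, and the Hedgehog receptor gene PTCH1 had 351 reads in vector and 1462 in E2-2, 4.28-fold (3.81 to 4.83) higher. SMO, the transducer that PTCH1 restrains, was 2.07-fold (1.81 to 2.37) lower, with 691 reads in vector and 325 in E2-2. Among BMP, TGF-beta and activin genes 6 of 33 were higher and 2 lower, 18.2% and 6.06%. The KEGG TGF-beta signaling pathway was nearer to all genes, with 6 of 53 higher and 2 lower, 11.3% and 3.77%. The BMP antagonist chordin (CHRD) had 2 reads in vector and 1708 in E2-2, 878-fold (243 to 7259) higher, whereas another BMP antagonist, noggin (NOG), was 2.72-fold (2.09 to 3.56) lower, with 221 reads in vector and 79 in E2-2. The ligand gene BMP3 had 0 reads in vector and 174 in E2-2, at least 59.7-fold higher, and the signal transducer SMAD1 was 3.48-fold (3.06 to 3.96) higher.

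G protein-coupled receptors were called in both directions. The GO term G-protein coupled receptor activity had 35 of 142 measured genes higher and 18 lower, 24.6% and 12.7%, both above the shares of all genes. With a minimum of 100 reads 16 of its genes were higher, while the count over all genes went from 1173 to 753. Fewer genes are measured at that minimum, and the share of this term there is not given. Of the 142 genes, 8 had 3 or fewer reads in 1 library. Among all genes with a mean below 3 CPM, 16.2% were higher and 8.01% lower. The part of level in the shares of this term was not tested. ADRA2B, an alpha-2 adrenergic receptor, had 0 reads in vector and 306 in E2-2, at least 105-fold higher. P2RY14, a receptor for UDP-glucose, had 16 reads in vector and 861 in E2-2, 55.3-fold (33.9 to 97.3) higher, and VIPR1, a receptor for vasoactive intestinal peptide, had 38 reads in vector and 1621 in E2-2, 43.9-fold (31.8 to 62.2) higher. Lower receptors included GPR85 with 3738 reads in vector and 1020 in E2-2, 3.56-fold (3.32 to 3.82) lower, the adhesion receptor ADGRB1, 4.40-fold (3.74 to 5.20) lower, and P2RY8, 4.14-fold (3.28 to 5.28) lower. Also lower were S1PR4 at 2.12-fold (1.88 to 2.39) and S1PR2 at 2.52-fold (1.60 to 4.09), which code for receptors of sphingosine-1-phosphate. RGS proteins, which end G protein signals, had calls in the higher direction: RGS2 was 4.17-fold (3.11 to 5.67) higher and RGS1 7.41-fold (2.90 to 24.2) higher. The list of cyclic nucleotide enzymes and RGS proteins had 6 of 36 higher and 0 lower.

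Among transcription factors, partners of E2-2 were examined whatever their values. TCF3 stood at 252 CPM in vector, 254 in HEB, 1312 in E2A and 200.4 in E2-2, and TCF12 at 165 CPM in vector, 836 in HEB, 168 in E2A and 145 in E2-2. Neither was called in E2-2 against vector. The inhibitor gene ID2 had 256 reads in vector and 2506 in E2-2, 10.1-fold (8.85 to 11.5) higher, and ID3 had 41 reads in vector and 1360 in E2-2, 34.1-fold (25 to 47.8) higher, whereas ID1 had 459 reads in vector and 251 in E2-2 and was not called. ID4 had 0 reads in every library. Of 6 measured tissue-restricted factors that pair with E proteins 1 was higher, ATOH8, by at least 13.4-fold, and 1 lower, OLIG1, by 3.35-fold (2.20 to 5.26). Of 35 other helix-loop-helix factors 8 were higher and 1, MYC, lower. MXD3, which competes with MYC for its partner MAX, had 244 reads in vector and 1404 in E2-2, 5.92-fold (5.16 to 6.81) higher, and the repressor BHLHE40 was 3.22-fold (2.65 to 3.92) higher. Of 47 measured blood transcription factors outside this family 10 were higher and 2 lower, 21.3% and 4.26% beside 8.45% and 3.55% of all genes. PRDM1, the repressor that drives plasma cell formation, had 2 reads in vector and 563 in E2-2, 289.5-fold (79.8 to 2397) higher. The interferon regulatory factor genes IRF7 and IRF8 were 8.18-fold (6.75 to 10.0) and 11.5-fold (4.65 to 36.9) higher, and SOX4 and NFIL3 were 2.03-fold (1.90 to 2.17) and 2.01-fold (1.53 to 2.65) lower.

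Genes known as E protein targets in lymphocytes had 9 of 19 measured members higher and 0 lower, with a median log2 fold of 0.89. The list was chosen with earlier results of these data known, so its count is a description only. The recombinase gene RAG1 had 12 reads in vector and 104 in E2-2, 8.91-fold (4.89 to 17.8) higher, and the interleukin 7 receptor gene IL7R had 1 read in vector and 31 in E2-2, 31.9-fold (5.31 to 1299.5) higher. The GO term B cell differentiation had 17 of 69 measured genes higher and 2 lower, and T cell differentiation had 31 of 125 measured genes higher and 6 lower. These are 24.6% and 2.9%, and 24.8% and 4.8%, beside 8.45% and 3.55% of all genes. LGALS1, which encodes the lectin galectin-1, had 28 reads in vector and 664 in E2-2, 24.4-fold (16.7 to 37) higher, and ADA, adenosine deaminase, had 285 reads in vector and 2763 in E2-2, 9.97-fold (8.82 to 11.3) higher. In type I interferon signaling pathway 20 of 57 measured genes were called higher and 0 lower, 35.1% higher beside 8.45% of all genes. The summed level of its genes was 5633 CPM in vector and 5242 in E2-2. Shares were smaller in defense response to virus, with 28 of 212 higher and 6 lower, 13.2% and 2.83%. The KEGG RIG-I-like receptor signaling pathway had 2 of 45 higher and 2 lower. The antiviral GTPase MX1 had 3 reads in vector and 91 in E2-2, and the viperin gene RSAD2 had 27 reads in vector and 245 in E2-2, 31.2-fold (10.3 to 154) and 9.33-fold (6.26 to 14.5) higher.

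Machinery that all cells use was called rarely or not at all. None of 123 measured genes of the KEGG pathway Ribosome, of 39 of Aminoacyl-tRNA biosynthesis, of 28 of RNA polymerase or of 22 of Protein export was called. Their medians were -0.33, -0.27, -0.16 and -0.10 on the log2 scale, below the -0.03 of all measured genes. Ribosome biogenesis had 1 of 70 higher, Spliceosome 1 of 123, RNA transport 3 of 146 and Oxidative phosphorylation 3 of 113, each with 0 lower. The Proteasome call was PSMB9, a subunit of the immunoproteasome, 4.54-fold (2.65 to 8.20) higher. The Oxidative phosphorylation calls were ATP6V1C2, ATP6V1B1 and TCIRG1, subunits of the proton pump of acidic vesicles and not of the mitochondrial chain. TCIRG1 had 215 reads in vector and 482 in E2-2, 2.31-fold (1.96 to 2.72) higher. Of 34 heat shock proteins and chaperones 0 were called, with a median of -0.25, and Cell cycle had 5 of 111 higher and 2 lower. Abundant genes of any function were called less often, by the shares given above, and the part of level in these counts was not tested.

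**Figure D2:**
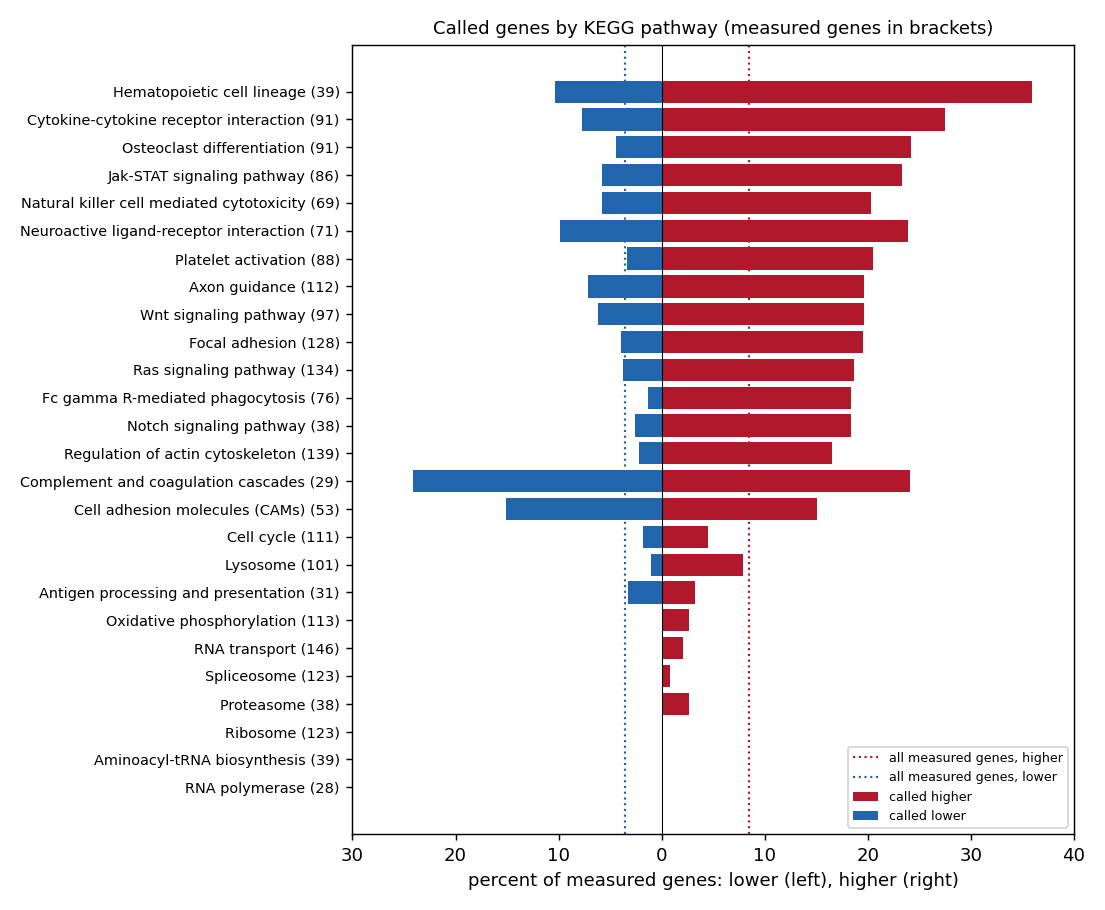
Percent of measured genes called higher (bars to the right) and lower (bars to the left) in 26 KEGG pathways, with the number of measured genes in brackets and dotted lines at 8.45% and 3.55%, the shares of all measured genes. Hematopoietic cell lineage and Cytokine-cytokine receptor interaction extend past both lines, Ribosome, Aminoacyl-tRNA biosynthesis and RNA polymerase have no bar, and Complement and coagulation cascades has equal bars.

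All KEGG pathways with 15 or more and GO terms with 20 or more measured genes were then ranked. By share higher, Hematopoietic cell lineage and Cytokine-cytokine receptor interaction led KEGG, followed by Inflammatory mediator regulation of TRP channels (16 higher and 3 lower of 61), Leishmaniasis (11 higher and 3 lower of 42), Basal cell carcinoma (9 higher and 5 lower of 35) and Primary immunodeficiency (5 higher and 3 lower of 20). The disease names cover phagocyte genes such as NCF1 and IL1B in Leishmaniasis and WNT and Hedgehog genes in Basal cell carcinoma. The cytokine gene IL1B had 156 reads in vector and 813 in E2-2, 5.36-fold (4.51 to 6.40) higher. In GO the leading terms were cellular response to vascular endothelial growth factor stimulus (12 higher and 2 lower of 30, TCF4 itself included), positive regulation of regulated secretory pathway (10 higher and 0 lower of 26) and respiratory burst. Positive regulation of gliogenesis (10 higher and 0 lower of 27), regulation of heart rate (11 higher and 1 lower of 30) and regulation of myotube differentiation (11 higher and 0 lower of 30) came next, and these hold genes of the groups above: the first has ID2, HES1 and IL1B, and the last has the histone deacetylase gene HDAC9, 5.77-fold (3.47 to 10.1) higher. A total of 16 KEGG pathways and 172 GO terms of that size had no called gene. Shares higher can include genes with few vector reads, which passed the read minimum through the E2-2 library. The part of such genes in these ranks was not tested.

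Terms were also ranked by their share of lower genes. Complement and coagulation cascades led KEGG with 7 higher and 7 lower of 29. SERPINA1, the protease inhibitor alpha-1 antitrypsin, had 1480 reads in vector and 256 in E2-2, 5.62-fold (4.92 to 6.44) lower. CR1, a complement receptor, was 2.89-fold (2.50 to 3.36) lower and CLU, the chaperone clusterin, 3.89-fold (1.98 to 8.35) lower. The integrin gene ITGAX was lower, 4.84-fold (3.40 to 7.05), and on the higher side stood THBD, an inhibitor of coagulation, at 5.76-fold (4.54 to 7.37), and the thrombin receptor gene F2RL3 at 18.2-fold (5.89 to 90.9). Retinol metabolism had 1 higher and 3 lower of 16: the short-chain dehydrogenases DHRS9 and DHRS3, which act on retinoids, had 781 reads in vector and 134 in E2-2, and 84 reads in vector and 26 in E2-2, 5.67-fold (4.71 to 6.86) and 3.14-fold (2 to 5.08) lower, and the cytochrome gene CYP1A1 was 8.51-fold (3.04 to 33) lower. Glycine, serine and threonine metabolism had 1 higher and 4 lower of 25. PSPH, which completes serine synthesis, was 2.31-fold (1.97 to 2.72) lower. The amine oxidase genes AOC2 and AOC3 of the same pathway lie side by side, and AOC3 was 2.40-fold (1.52 to 3.86) lower. In GO, T-helper 1 type immune response had 3 higher and 4 lower of 21, with IL18R1, IL27RA, TLR6 and JAK3 the lower members, and establishment of melanosome localization had 2 higher and 4 lower of 20, with the vesicle GTPase gene RAB27B at 1066 reads in vector and 250 in E2-2, 4.15-fold (3.61 to 4.78).

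Several lower genes had high counts and narrow intervals. C1QTNF4, a secreted C1q-related protein, had 11422 reads in vector and 3114 in E2-2, 3.57-fold (3.43 to 3.71) lower. SERPINB9, an inhibitor of granzyme B, had 2550 reads in vector and 544 in E2-2, 4.56-fold (4.15 to 5.01) lower, and CCL5, a chemokine, had 1591 reads in vector and 434 in E2-2, 3.56-fold (3.20 to 3.97) lower. SLC18A2, which loads amines such as histamine and serotonin into vesicles, had 1246 reads in vector and 288 in E2-2, 4.21-fold (3.70 to 4.80) lower. The calcium channel subunit gene CACNB4 had 1378 reads in vector and 317 in E2-2, and the arginine deiminase gene PADI3 had 1873 reads in vector and 477 in E2-2, 4.23-fold (3.74 to 4.79) and 3.82-fold (3.45 to 4.23) lower. PTRF, which codes for the caveola coat protein cavin-1, had 3805 reads in vector and 1082 in E2-2, 3.42-fold (3.19 to 3.66) lower. TREM1, an activating receptor of myeloid cells, was 7.78-fold (4.35 to 15.1) lower but had only 104 reads in vector and 13 in E2-2.

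Markers of cell types that a culture or sort could also hold were counted as whole lists. For epithelial cells 4 of 14 were measured and the summed level was 78.5 CPM in vector and 55.2 in E2-2, with 0 called and no read of KRT5 or KRT14 in either library. Keratin genes outside that list were higher: KRT16 had 0 reads in vector and 292 in E2-2, at least 100.1-fold higher, and KRT17 had 1 read in vector and 478 in E2-2, 492-fold (87.8 to 19459) higher, and near-identical copies can share their reads. In the GO term keratinization 4 of 10 measured genes were called higher and 1 lower. For fibroblasts and endothelial cells 2 of 13 were measured and the summed level was 89.8 CPM in vector and 55.3 in E2-2, 1 gene (KDR) was higher, and LUM and THY1 had 0 reads. For T and NK cells 4 of 15 were measured and the summed level was 8.72 CPM in vector and 8.18 in E2-2, CD3D and CD8A were lower, and CD28 and GNLY had 0 reads. For monocytes and macrophages 2 of 14 were measured and the summed level was 20.5 CPM in vector and 63.8 in E2-2: CSF1R was the higher gene, 8 of 14 had 3 or fewer reads in each library, and 5 had 0, among them CD68, CD300E, MSR1 and S100A12. For B and plasma cells 7 of 14 were measured and the summed level was 120.4 CPM in vector and 283 in E2-2, with MZB1, IGLL1, CD79A and PAX5 higher and BLK and FCRLA at 0. For neutrophil granules 2 of 12 were measured and the summed level was 936 CPM in vector and 1291 in E2-2, with 0 called. Neuronal markers summed to 7.82 and 14.2 CPM with 1 of 3 measured higher, and muscle markers to 82.9 and 97.2 CPM with MYBPH and TNNT2 higher and TNNT1 lower of 7. CSF1R is itself a higher member of Osteoclast differentiation, and IGLL1 and CD79A are higher members of Primary immunodeficiency. These marker levels are therefore not separate from the counts above, and their part in the lymphoid and phagocyte groups was not tested.

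Along the genome calls of both directions lay on each of chromosomes 1 to 22 and X. Median log2 folds ranged from -0.16 on chromosome 19 to 0.13 on chromosome 13, and none of 15 measured mitochondrial genes was called (median -0.25). The share higher ran from 4.87% on chromosome 19 to 12.8% on chromosome 22. Nearness of called genes to each other was counted as well. A window was defined as at least 3 called genes of 1 direction starting within 500 kb. In all, 106 windows held 410 higher genes, 35% of them, and 21 windows held 74 lower genes, 15% of them. The same count was not made for measured genes of any call, so these shares do not show that calls cluster. More genes were called higher than lower, which also allows more windows. In 22 and 8 windows every measured gene was called. Each window runs from its first to its last called gene, so genes beside it are not counted. Shares called within windows are therefore raised by this rule. Gene families with near-identical copies, overlapping genes and antisense genes can share reads, so neighbouring calls are not independent counts.

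Windows with at least 5 higher or 4 lower genes in which 70% or more of the measured genes were called are given, a choice made after the values were seen, with positions in the build of the table (GRCh38). Windows with as many calls but a smaller share called, such as 7 of 18 on chromosome 19 or 8 lower of 42 on chromosome 17, are not described. On chromosome 7, from 142299177 to 142871094, 12 of 15 measured genes were higher in and beside the T cell receptor beta locus. They were the V segments TRBV1, TRBV2, TRBV8-2, TRBV9, TRBV6-5, TRBV7-4, TRBV5-4, TRBV6-6, TRBV7-5 and TRBV27, the trypsinogen gene PRSS2, which lies inside the locus, and the ephrin receptor gene EPHB6 beside it. Most of these 12 had few or no reads in vector and passed the read minimum through the E2-2 library. Their share is therefore no measure of the locus. Genes with few vector reads in the other windows of higher genes passed the minimum in the same way. TRBV5-4 had 5 reads in vector and 314 in E2-2, 64.6-fold (27.4 to 200.3) higher, PRSS2 had 1 read in vector and 600 in E2-2, and the constant segment TRBC1 was not called. On chromosome X, from 119991393 to 120575794, 7 of 9 were higher, among them the reproductive homeobox gene RHOXF2 with 5 reads in vector and 235 in E2-2, its copy RHOXF2B with 4 reads in vector and 79 in E2-2, RHOXF1-AS1, RHOXF1P1, RHOXF1P3, NKAPP1 and the ubiquitin ligase scaffold gene CUL4B.

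Chromosome 22 held a window of 6 higher genes of 6 from 23433564 to 23583859, with the surrogate light chain gene IGLL1 (601 reads in vector and 2558 in E2-2), the non-coding RNA PCAT14 (17 reads in vector and 263 in E2-2) and 4 genes known by clone identifiers. A second window, from 24181259 to 25197448, had 7 of 10 higher: SUSD2, the glutathione-cleaving enzyme gene GGT1, LRRC75B, BCRP3, PIWIL3, KIAA1671 and 1 clone identifier. On chromosome 17, from 74213514 to 74546143, all 5 measured genes were higher: TTYH2 (13 reads in vector and 1053 in E2-2), KIF19, GPR142, GPRC5C and the myeloid receptor gene CD300C (4 reads in vector and 192 in E2-2). On chromosome 16, from 3027682 to 3099317, the cytokine gene IL32 (155 reads in vector and 1238 in E2-2), the protease gene MMP25, CCDC64B, ZSCAN10 and 2 clone identifiers made up 6 of 7 measured genes. On chromosome 6, from 166305300 to 166906451, the kinase gene RPS6KA2 (65 reads in vector and 839 in E2-2), the mitochondrial pyruvate carrier gene MPC1, PRR18, SFT2D1 and HNRNPA1P49 were all 5 measured genes. On chromosome 4, from 5014586 to 5893058, CYTL1 (1280 reads in vector and 5115 in E2-2), STK32B, EVC2, CRMP1 and RN7SKP275 were 5 of 6.

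Among windows of lower genes, the interleukin 18 receptor locus on chromosome 2, from 102311529 to 102452565, had all 4 measured genes lower: IL18R1, IL18RAP and 2 clone identifiers. On chromosome 5, from 150601080 to 151224145, 7 of 10 were lower: the actin-binding protein gene SYNPO, MYOZ3, SMIM3, IRGM, ZNF300, CCDC69 and the annexin gene ANXA6. ANXA6 had 8040 reads in vector and 3701 in E2-2, 2.11-fold (2.03 to 2.20) lower, and its neighbour TNIP1, which lies between the lower genes, was not called.

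**Figure D3:**
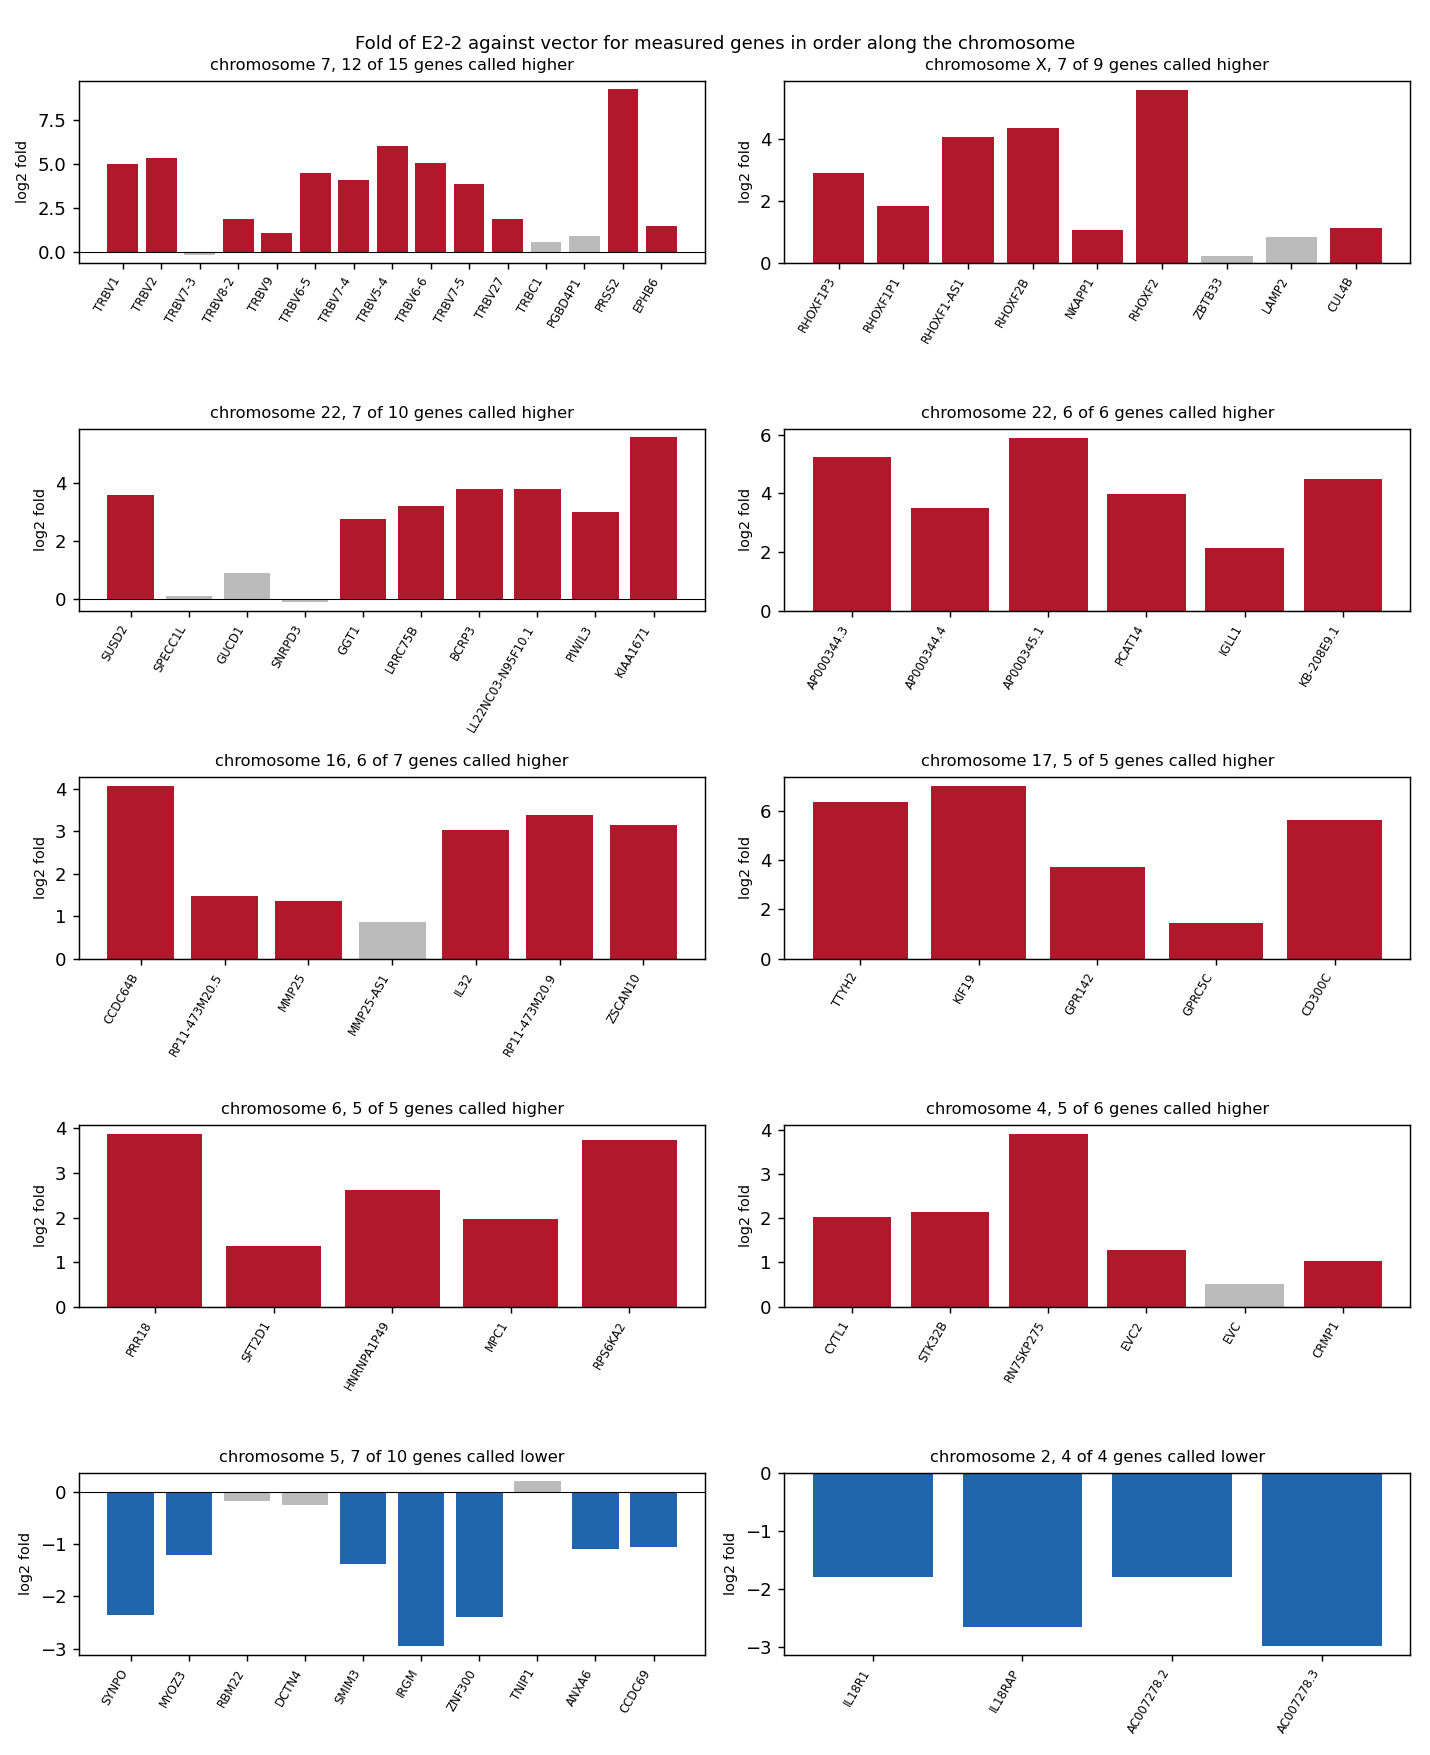
Log2 fold of E2-2 against vector (vertical axis) for each measured gene in its order along the chromosome, in the 8 windows of higher and the 2 windows of lower genes described, coloured red for higher, blue for lower and grey for not called. No window holds a gene called in the opposite direction, and grey genes such as TRBC1, LAMP2 and TNIP1 lie among called ones. A gene without reads in vector is drawn at its bound.

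The promoter letters shown at the start were next counted over all genes. RefSeq windows of 300 bases, 250 before to 50 after a start, were at hand for 9424 measured genes (13732 windows), and both strands were read. CAGCTG occurred in 310 of 1196 windows of higher genes (25.9%), in 20.9% of those of lower genes, in 16.5% of those not called and in 17.9% of all 35116 windows of the table. CACCTG or CAGGTG occurred in 24.2%, 20.9%, 18% and 20.6%, in the same order. For either of these forms the share of windows was 39.2% for genes higher by 2- to 4-fold and 46% at 4- to 8-fold. It was 51.9% at 8- to 16-fold and 44% at 16-fold or more, against 31.5% of windows of genes not called. A count of 2 or more such sites was found in 13.6% of windows of higher genes, 9.22% of lower and 6.24% of those not called, as in CPA3, MYBPH, VWA5B2 and CSF1R. In the 150 bases next to the start this order between higher and lower genes turned for 2 or more sites (3.93%, 4.13% and 1.75%). For CACCTG or CAGGTG higher and lower genes were nearly level there (11.5%, 11.4% and 8.06%).

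Other E-box forms did not all follow this order. CACGTG, the form that MYC binds, occurred in 7.53% of windows of higher genes and 9.53% of those not called. CAGATG or CATCTG occurred in 15.6% of higher, 15.3% of lower and 9.68% of windows not called, and so was alike in both called groups. CATATG was rare, in 2.76%, 3.16% and 1.32%. Any CANNTG, which contains all of these, occurred in 68.5%, 68.2% and 60.3%. The median GC content of the windows was 65% for higher, 62.7% for lower and 64.7% for genes not called, and its part in these shares was not tested. Windows of 1 gene can overlap, with 1.61 windows per higher gene and 1.44 per gene not called.

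**Figure D4:**
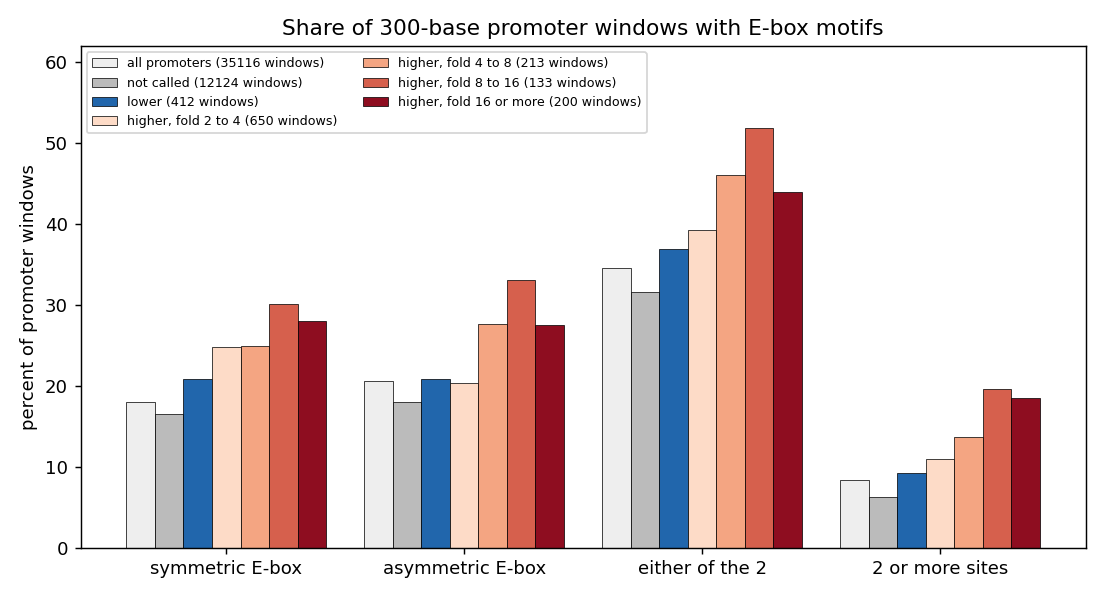
Percent of 300-base promoter windows (vertical axis) that hold the symmetric E-box with inner GC, the asymmetric one with inner GG or CC, either of them, or 2 or more sites, by call and by size of the fold. Windows of higher genes lie above those not called in each set, and the bars for 16-fold or more are below those for 8- to 16-fold.

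The E2-2 library was last set directly against the other E protein libraries. Of 14066 genes measured with E2A, 511 (3.63%) were higher in E2-2 and 227 (1.61%) lower. Of 13891 measured with HEB, 846 (6.09%) were higher in E2-2 and 218 (1.57%) lower. Both comparisons use the E2-2 library that chose the genes above, so the direction for those genes is not independent. CHRD stood at 0.128 CPM in vector, 2.24 in HEB, 9.28 in E2A and 113 in E2-2, 12.1-fold (10.3 to 14.3) higher in E2-2 than in E2A. CYTH4 stood at 2.18 CPM in vector, 13.5 in HEB, 15.5 in E2A and 147 in E2-2, 9.52-fold (8.39 to 10.8) higher than in E2A. Levels of CSF2RB were 11.8 CPM in vector, 18.7 in HEB, 13.4 in E2A and 44.7 in E2-2, and those of IL6R were 8.65 CPM in vector, 12.9 in HEB, 11.5 in E2A and 45 in E2-2. For both receptor genes the E2A and HEB levels lay between vector and E2-2 and nearer to vector.

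Other genes were shared more evenly. PPP1CC stood at 583 CPM in vector, 1476 in HEB, 1861 in E2A and 2553 in E2-2, and E2-2 differed from E2A by 1.37-fold (1.35 to 1.39), below the threshold. VAV1 stood at 44.2 CPM in vector, 74.9 in HEB, 104 in E2A and 139 in E2-2 and PTCH1 at 22.5 CPM in vector, 63.5 in HEB, 51.8 in E2A and 96.4 in E2-2, and neither was called between E2-2 and the other E proteins. CPA3 was higher in E2A than in E2-2, at 0.0641 CPM in vector, 5.92 in HEB, 42.9 in E2A and 32 in E2-2. Lower genes were also graded: IL18RAP stood at 114 CPM in vector, 58.2 in HEB, 55.9 in E2A and 18.2 in E2-2, and SERPINA1 at 94.9 CPM in vector, 53.1 in HEB, 45.9 in E2A and 16.9 in E2-2. MYC, at 329.5 CPM in vector, 306 in HEB, 250.4 in E2A and 142 in E2-2, was close to vector in HEB and lowest in E2-2.

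**Figure D5:**
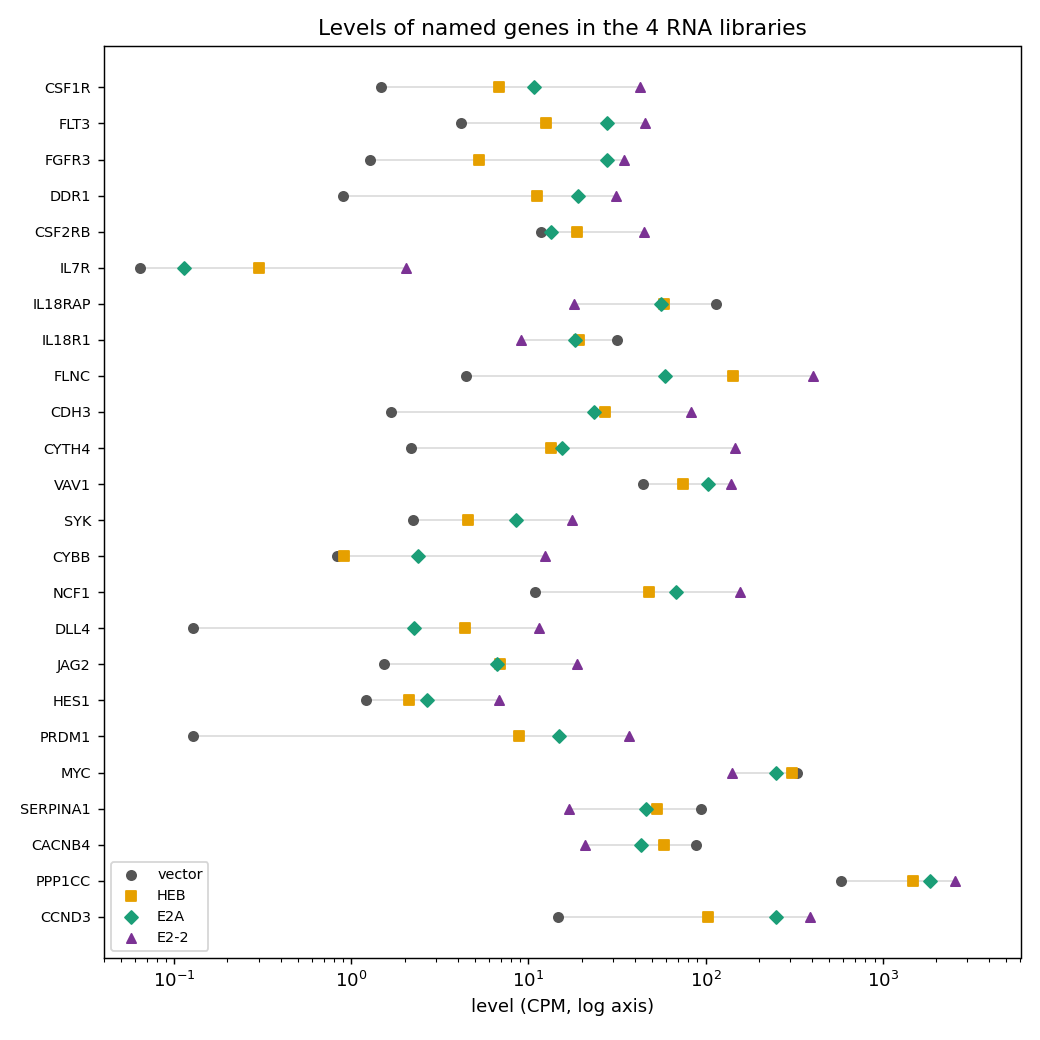
Levels of 24 named genes in CPM on a log axis, 1 mark per RNA library for vector, HEB, E2A and E2-2. E2-2 is the highest mark for the receptor genes CSF1R, FLT3 and CSF2RB, and the lowest for IL18RAP, IL18R1, MYC, SERPINA1 and CACNB4.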

How the data were processed

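RNA-seq was done on 4 Kasumi-1 libraries, 1 each for vector, E2-2, E2A and HEB, and E2-2 was compared with vector. TRIzol, a TruSeq RNA kit and a HiSeq2500 were used, per the labels' protocols. The authors deposited whole-number read counts per Ensembl gene and FPKM values, with KEGG and GO terms and positions. The submitters' processing notes name TopHat2 2.0.9 and HTSeq 0.9.1 and the builds hg38 and hg19 without roles, and whether counting used the strand is not given in the sources used here. Bowtie2 2.2.9 and MACS2 2.1.1.20160309 are also named there. The ChIP-seq data were not used here, and some genes are not reported here.

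Counts were scaled with edgeR 4.0.16 (TMM, R 4.3.3) over the 4 libraries, as no test was possible with 1 library per group. Folds are ratios of scaled counts with 95% exact conditional binomial (Clopper-Pearson) intervals. These cover counting error only, because each group has 1 library. PCR copies of a molecule cannot be recognised in counts, and the intervals do not allow for them. A count of 0 was set to 3 reads (0.192 CPM in vector, 0.198 in E2-2), and the fold is then a bound. Calls needed 30 reads, 2-fold and an interval excluding 1. Alternatives were DESeq2 1.42.0 size factors, total counts, other minima and folds, the deposited FPKM, protein-coding genes only and a shorter promoter window. Calls were tested on simulated data. Python 3.11.15, scipy 1.17.1, pandas 2.3.3 and matplotlib 3.10.9 were used.

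Genes named are the E protein and ID genes, genes from the first 40 called in either direction when ordered by the end of the interval closer to 1, up to 4 called members per direction of each list or term, and all called members of windows described, passing over clone identifiers. The label-check genes MPO, KIT, CD34, RUNX1T1, ELANE and CD33, the genes not called beside called neighbours and the members of terms named without a value were chosen after their values were seen. Gene types and promoters come from RefSeq GRCh38.p14, and 99.97% of 11840 measured genes with the same symbol and chromosome overlapped there, so positions are in that build. RefSeq types were matched by symbol for 11841 measured genes. Members and lists were chosen with earlier results of these data known.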

Additional observations from a re-analysis of the deposited data

How the results depend on the processing

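With at least 100 reads per gene, 753 genes were higher and 285 lower, and 64 windows of neighbouring calls were found, against 1173, 493 and 127. With no filter the windows numbered 210. A threshold of 1.5-fold gave 1878 higher and 1309 lower genes, and a threshold of 4-fold gave 513 and 54. Within 150 bases of the start, CAGCTG was found in 15.6% of windows of higher genes and 9.07% of those not called, since the window is shorter. DESeq2 size factors gave 1195 higher and 467 lower genes, total counts 1227 and 430, and FPKM 1237 and 447. None of 464 named folds changed direction with these size factors, total counts or, where run, FPKM. Counts of genes called per list and direction moved by over 1.5 times in 63 of 370 with 100 or more reads, 35 with no filter, 29 with total counts, 28 with FPKM and 9 with DESeq2 size factors. With 100 or more reads, higher genes numbered 12 in KEGG Wnt signaling, 7 in homophilic cell adhesion and 4 in Complement and coagulation cascades. The main counts were 19, 12 and 7. Fewer genes are measured at that minimum, so these counts are not shares. Without replicates, differences between cultures are not measured, and folds resting on 3 or fewer vector reads have very wide intervals. No paired analysis was possible because each group has 1 library.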
